A study of Mus musculus with 12 samples.

Results

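The genes described here are 81 nuclear genes of the mitochondrial respiratory chain and ATP synthase, out of 23238 gene symbols measured in mouse kidney. They were chosen by name alone: symbols starting with Nduf (complex I, 38 genes), Uqcr (complex III, 8 genes), Cox followed by a digit from 4 to 8 (complex IV, 18 genes) and Atp5 (complex V, 17 genes). The 7 Ndufaf assembly factors share the first letters of complex I but were left out, and are given with the other assembly factors. A few names mislead. Ndufa4 was named for complex I and was later found with complex IV, and Ndufa4l2 is a paralogue of Ndufa4 known as a hypoxia target. Cox7a2l has been described as a factor in joining complexes III and IV, a role not examined in these mice. Atp5s is a factor of ATP synthase rather than a subunit, and Atp5sl is an assembly factor of complex I.

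Kidneys of C57BL/6 mice were measured in 3 groups of 4 libraries: control mice (Control), a chronic kidney disease group (CKD), and a group with that disease kept on time restricted feeding (CKD TRF), which limits food to part of the day. RNA was sequenced from transcript 3′ ends with a QuantSeq kit. The labels do not say how the disease was brought about, which hours food was given, when kidneys were taken, or the sex of the mice. Separate animals per library are not stated either, so p-values reflect only how libraries of a group spread, which may be in part technical.

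Complex I takes electrons from NADH and complex III passes them from ubiquinol to cytochrome c, while complex IV hands them to oxygen. Complexes I, III and IV pump protons across the inner mitochondrial membrane, and complex V, the ATP synthase, uses the returning protons to make ATP. The kidney's tubule cells, above all those of the proximal tubule, are rich in mitochondria because reabsorption of the filtrate costs much ATP. Most subunits are encoded in the nucleus, as all genes here are. The subunits encoded by the mitochondrial genome were not analysed here.

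Promoter sequences are shown for 5 genes that fell or did not pass the test in CKD as deposited. Cox8b, the only gene called higher there, is not shown. Ndufb3 and Cox7c had the largest falls of complex I and of the general complex IV subunits. Ndufb4 fell, and its window held 3 matches to the NRF1 motif. Ndufs6 and Atp5o did not pass the test although their windows held that motif too. NRF1 is a transcription factor known for binding promoters of respiratory chain genes. Each sequence is from RefSeq on build GRCm38.p6 and runs 5′ to 3′ on the gene's strand, from 250 bases before the start of transcription to 50 after it. Capitals mark matches, on either strand, to the motifs of NRF1 (GCGCA, any base, then GCGC), GABPA of the ETS family (CCGGAAG), ERR (AAGGTCA), YY1 (AAGAT followed by GGCGG), SP1 (GGGGCGG) and CREB (TGACGTCA).
Ndufb3 (chr1:58586147-58586446, plus strand): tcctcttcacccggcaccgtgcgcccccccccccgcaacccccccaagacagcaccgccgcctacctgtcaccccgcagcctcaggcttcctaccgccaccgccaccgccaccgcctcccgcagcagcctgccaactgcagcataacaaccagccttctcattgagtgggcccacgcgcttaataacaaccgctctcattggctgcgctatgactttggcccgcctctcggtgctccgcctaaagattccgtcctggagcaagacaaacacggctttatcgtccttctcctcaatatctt
Cox7c (chr13:86046746-86047045, minus strand): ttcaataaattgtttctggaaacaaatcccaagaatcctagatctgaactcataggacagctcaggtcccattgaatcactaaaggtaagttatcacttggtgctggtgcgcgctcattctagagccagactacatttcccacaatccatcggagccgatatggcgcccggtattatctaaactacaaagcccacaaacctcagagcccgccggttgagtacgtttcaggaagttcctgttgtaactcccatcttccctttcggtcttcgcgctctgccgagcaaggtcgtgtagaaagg
Ndufb4 (chr16:37654319-37654618, minus strand): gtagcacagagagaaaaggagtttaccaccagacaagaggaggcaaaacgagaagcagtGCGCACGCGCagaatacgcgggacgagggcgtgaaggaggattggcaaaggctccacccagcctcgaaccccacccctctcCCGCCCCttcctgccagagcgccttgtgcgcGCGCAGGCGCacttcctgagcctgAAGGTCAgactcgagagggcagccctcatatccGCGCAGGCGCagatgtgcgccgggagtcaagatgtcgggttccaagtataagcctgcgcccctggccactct
Ndufs6 (chr13:73328433-73328732, minus strand): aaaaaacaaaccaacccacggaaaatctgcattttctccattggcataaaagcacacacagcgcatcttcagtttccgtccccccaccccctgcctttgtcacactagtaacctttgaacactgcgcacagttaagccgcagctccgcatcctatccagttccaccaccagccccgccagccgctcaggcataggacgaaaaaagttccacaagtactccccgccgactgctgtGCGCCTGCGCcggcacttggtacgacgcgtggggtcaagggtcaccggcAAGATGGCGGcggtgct
Atp5o (chr16:91931581-91931880, minus strand): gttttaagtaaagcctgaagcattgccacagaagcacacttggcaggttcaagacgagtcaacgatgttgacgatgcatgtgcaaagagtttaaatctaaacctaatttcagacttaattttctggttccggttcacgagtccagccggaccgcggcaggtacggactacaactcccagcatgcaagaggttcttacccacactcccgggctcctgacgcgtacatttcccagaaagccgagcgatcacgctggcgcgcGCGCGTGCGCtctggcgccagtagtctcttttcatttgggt

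Of the 81 genes, 67 had a promoter in the RefSeq table, and 6 of these had more than 1. The NRF1 motif was found in 22.4% of the 67, against 10.8% of 11009 tested genes with a promoter and 5.19% of all 27025 genes in the table. The YY1 motif was found in 8.96%, against 2.24% of the tested genes and 0.995% of all genes, and the ERR motif in 10.4%, against 4.02% and 5.38%. The SP1 motif was found in 26.9%, below the 46.3% of the tested genes and near the 25.5% of all genes. The GABPA motif was in 20.9%, against 18.8% of the tested genes and 9.93% of all genes, and the CREB motif in 5.97%, against 3.38% and 2.03%. The median change in CKD against Control, on the log2 scale, was -0.51 for the 15 genes with the NRF1 motif. It was -0.54 for the 51 tested genes without it and -0.53 for the 25 genes with none of the 6 motifs. With and without the motif it was -0.65 and -0.52 for ERR (7 genes with it) and -0.71 and -0.53 for CREB (4). For GABPA (14) it was -0.59 and -0.51, for YY1 (6) -0.52 and -0.53 and for SP1 (18) -0.54 and -0.53. These differences were not tested. A match is a description of letters and not of binding, and a window without one says only that these letters are not in it.

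Values below are the deposited log2 values, each log2 of a scaled read number plus 1. A change is the difference between 2 group means of these values, given with its standard error (SE) from limma and n = 4 per group. Scaled reads are the same values without the logarithm and are near the size of CPM values, and they compare libraries for 1 gene and not different genes. The files held 10989788 to 12810807 reads per library in Control, between 14512463 and 16857878 in CKD and between 14145846 and 17209942 in CKD TRF. A count of 0 allows up to 3 reads, which came to 0.168 to 0.306 scaled reads in these libraries, for counting error only. The scaled reads of a library summed to more in Control (1076773 to 1180101) than in CKD (941189 to 978419) or CKD TRF (987841 to 1025834). The ribosomal RNA precursor Rn45s took 5.07% to 11.3% of the scaled reads in Control, between 9.60% and 11.5% in CKD and between 11.0% and 13.3% in CKD TRF, and its part in the results was not tested. Fat marker genes stood out in 5 libraries, CKD 2, CKD 4, CKD TRF 1, CKD TRF 3 and CKD TRF 4, where their mean log2 value was 3.48 to 5.39 against at most 1.84 in Control.

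The comparison of CKD with Control asks how the chain's transcripts differ in diseased kidneys. Most of them fell together. Among the 78 genes with enough signal to be tested, 71 fell and 1 rose, Cox8b, at a limma adjusted p under 0.05. Over all 13943 tested genes, 21.8% fell and 23.6% rose by the same rule. The median change of the 78 was -0.54, against 0.02 over all tested genes. The 4 values of CKD all lay below the 4 of Control for 62 of the 78 genes, against 19.2% of all tested genes.

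Genes with high values, counted from 3′ ends and not divided by length, fell more often in these data than genes with low values. Among the 1395 tested genes with the highest mean value, 53.3% fell, with a median change of -0.30. Of the 64 respiratory chain genes in that set 59 fell, with a median of -0.55. All CKD values lay below all Control values for 676 of the 1395 and 54 of the 64. Other scalings kept the median below 0 but moved the count. Quantile normalization left 40 genes lower and called 5 higher, with a median of -0.26. Scaling each library to an equal sum left 45 lower and 1 higher, with a median of -0.31, and limma's voom on the whole reads recovered from the values left 47 lower and 0 higher, with a median of -0.32. Equal sums moved the median of all tested genes up by 0.21 and voom by 0.23, while centring on the median moved it down by 0.10. Relative to the median of all tested genes, the chain's median was -0.56 as deposited, -0.56 after median centring, -0.54 with equal sums, -0.57 with voom and -0.21 after quantile normalization. Of the 71 falls, 38 kept their call under every alternative that gave a value, 22 of 35 in complex I, 4 of 8 in complex III, 4 of 12 in complex IV and 8 of 16 in complex V. Quantile normalization ended 31 calls, equal sums 26, voom 24, leaving out the 5 fat-marker libraries 16, and leaving out a single library 9. The chain's median change was -0.63 without the fat-marker libraries, a fit that keeps 2 libraries in CKD. With the fat marker mean as a covariate it was -0.65, so neither was closer to 0 than the median as deposited. Of all genes called, 52.1% were higher as deposited, 76.3% with equal sums, 75.8% with voom and 40.4% after median centring.

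**Figure D1:**
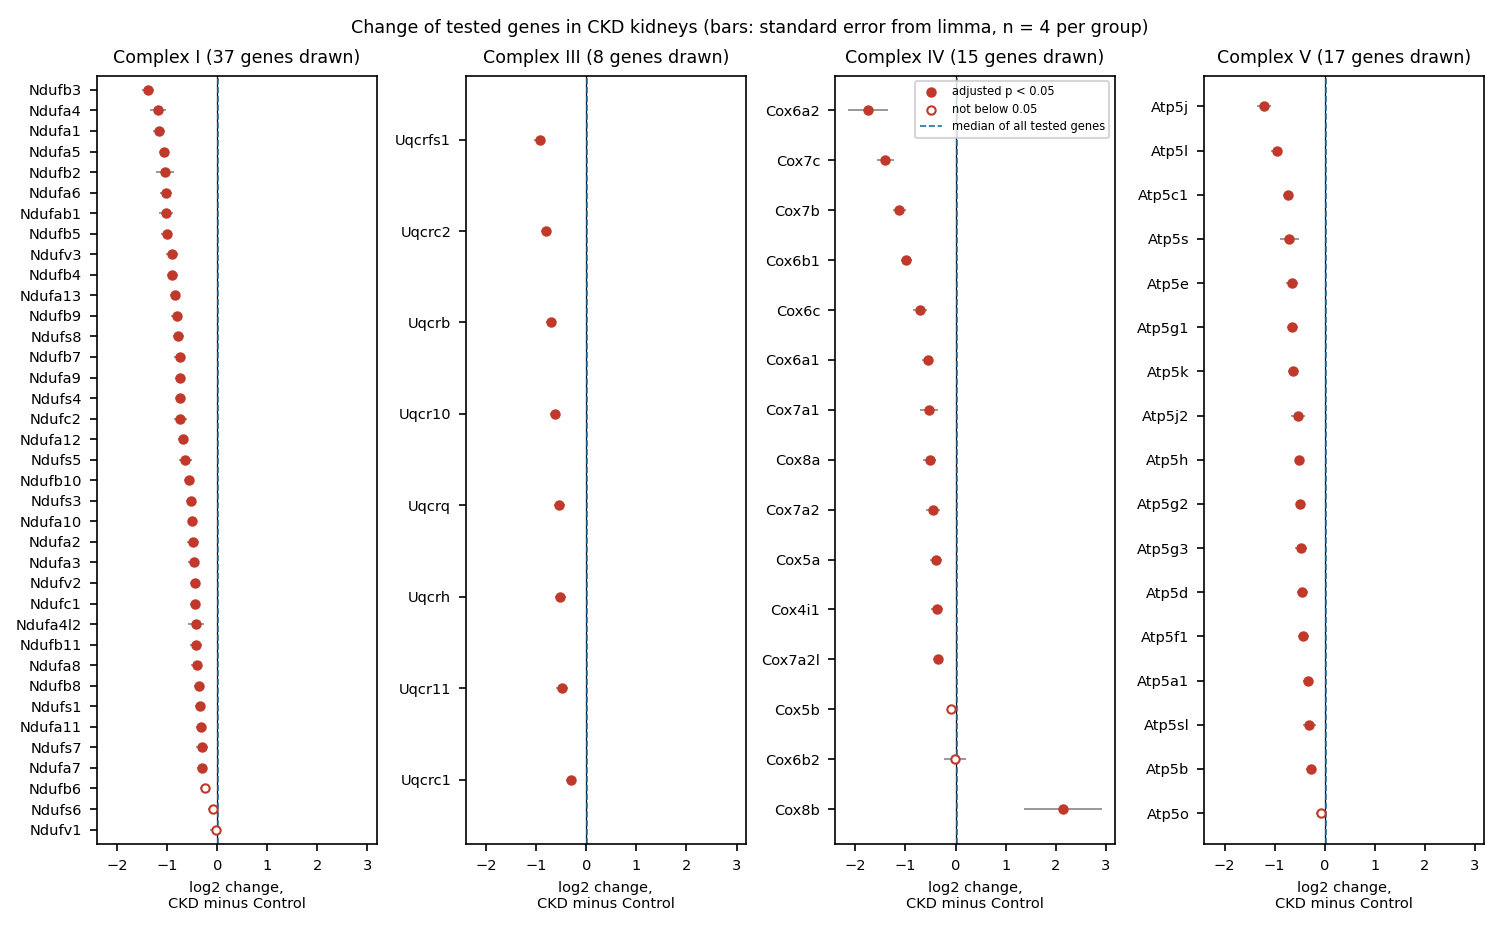
Change of 77 of the tested genes in CKD against Control (x axis, log2), 1 row per gene and 1 panel per complex, with SE bars from limma (n = 4 per group). Filled points passed an adjusted p of 0.05, and the dashed line, near 0, is the median of all 13943 tested genes. Of 77 points 76 lie left of 0, and Cox8b at 2.15 stands alone on the right.

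Complex I had the largest median fall. Of its 38 genes 35 fell and none rose, and the median change was -0.62. The complex is built from core subunits that carry out the chemistry and accessory subunits around them. Of the 7 nuclear core subunits 6 fell, with a median of -0.45. Of the 30 genes counted as accessory subunits 28 fell, with a median of -0.74. The 30 include Ndufa4, which was later found with complex IV. The difference between core and accessory subunits was not tested.

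The accessory subunit Ndufb3 (chr1:58586384-58595964, mm10) showed the largest fall of complex I. It stood at 9.87, 9.53, 9.69 and 9.70 in Control, at 8.35, 8.11, 8.37 and 8.43 in CKD, and at 8.39, 8.11, 8.52 and 8.61 in CKD TRF. All 8 diseased libraries lay below the lowest Control library. Its change in CKD was -1.38 ± 0.11 (limma adjusted p = 1.12e-08), a fall from 832 ± 80.2 to 319 ± 29.7 scaled reads (SD, n = 4). Ndufa4 (chr6:11900292-11907497) stood at 9.09, 9, 8.44 and 8.81 in Control and at 7.60, 7.21, 7.75 and 8.04 in CKD. Control 3 was the lowest of its group and CKD 2 the lowest of its own, and the groups did not overlap. Its change was -1.18 ± 0.16 (limma adjusted p = 7.17e-06). The accessory subunit Ndufa1 (chrX:37187588-37191163) ran from 8.94 to 9.42 in Control and from 7.87 to 8.28 in CKD, a change of -1.17 ± 0.12 (limma adjusted p = 3.89e-07). Ndufa5 (chr6:24518666-24528013), an accessory subunit of the arm that projects into the matrix, ran from 9.22 to 9.37 in Control and from 8.06 to 8.49 in CKD, and fell by 1.06 ± 0.11 (limma adjusted p = 1.99e-07).

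Core subunits spread widely. Ndufs8, which carries iron-sulfur clusters, fell by 0.77 ± 0.11 and Ndufs3 by 0.52 ± 0.09. Ndufv2 fell by 0.45 ± 0.11, Ndufs1 by 0.35 ± 0.09 and Ndufs7 by 0.30 ± 0.11 (limma adjusted p from 8.91e-06 to 0.0305 for these 5). The calls of Ndufv2, Ndufs1 and Ndufs7 were lost with quantile normalization, equal sums (-0.22, -0.12 and -0.08) and voom. That of Ndufs7 was lost in 12 of 26 alternatives, among them the fit of the 2 compared groups only and the fits without any one of Control 1, Control 2, CKD 1, CKD 2 or CKD 3 (limma adjusted p from 0.0519 to 0.104). Ndufv1 (chr19:4007384-4012806), the flavin-binding subunit where electrons from NADH enter, was the exception: 8.57, 8.41, 8.35 and 8.30 in Control against 8.40, 8.41, 8.25 and 8.44 in CKD. Its groups overlapped fully, with a difference of -0.03 ± 0.11 (limma adjusted p = 0.828). Ndufs6, an accessory subunit that carries zinc, stood at 8.64, 8.39, 8.35 and 8.39 in Control and 8.34, 8.35, 8.25 and 8.45 in CKD, with a difference of -0.09 ± 0.09 (limma adjusted p = 0.441). Ndufb6, an accessory subunit of the membrane arm, differed by -0.25 ± 0.10 (limma adjusted p = 0.0603). Under quantile normalization Ndufv1 and Ndufs6 were called higher instead, by 0.27 and 0.22, and with equal sums they stood 0.20 and 0.14 above Control without a call. Median centring called Ndufb6 lower (-0.35, limma adjusted p = 0.00924). So did the fat marker covariate (-0.36) and the fits without Control 3 (-0.33) or CKD 4 (-0.29), with limma adjusted p from 0.0123 to 0.0415. The last bases of Ndufb6 overlap Smim27 on the opposite strand, and the strand setting of the counting is not given in the sources used here.

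The other 24 accessory subunits that fell in complex I changed by -0.30 (Ndufa7) to -1.03 (Ndufb2). Between these lie Ndufa6 at -1.02, Ndufab1, the mitochondrial acyl carrier protein, at -1.02, Ndufb5 at -1.01, Ndufa9 at -0.75, Ndufs4 at -0.74 and Ndufb8 at -0.35, which stood 0.10 above Control after quantile normalization. Of the 24, Ndufa2, Ndufa3, Ndufa7, Ndufa8, Ndufa11, Ndufb8, Ndufb11 and Ndufc1 lost their calls with quantile normalization and with equal sums, and Ndufa10 with quantile normalization. Ndufa7 lost its call in 11 of 26 alternatives, with -0.07 under equal sums, and also without any one of Control 1, Control 2, CKD 1 or CKD 2 (limma adjusted p from 0.0548 to 0.0963). Ndufa11 also lost its call without Control 1 or CKD 3 (limma adjusted p = 0.0733 and 0.0516). The last bases of the Ndufa11 transcript are nearly identical to those of Ndufa11b, so reads may be split between them. Ndufa4l2 stood at 4.03 to 4.43 in Control and 3.66 to 4.16 in CKD, so its groups overlapped. Its change of -0.43 ± 0.16 passed (limma adjusted p = 0.0328), but the call was lost with equal sums (-0.22, limma adjusted p = 0.291), voom (-0.23, limma adjusted p = 0.282), the fat marker mean as a covariate (-0.31, limma adjusted p = 0.208), without the 5 fat-marker libraries (-0.36, limma adjusted p = 0.22) and without any one of Control 1, Control 2, Control 3, CKD 2, CKD 3 or CKD 4 (limma adjusted p from 0.0522 to 0.0959). Its 3′ end overlaps Shmt2 on the other strand.

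All 8 genes of complex III fell, with a median of -0.58, and the groups did not overlap for any of them. Uqcrfs1 (chr13:30540308-30545362) encodes the Rieske iron-sulfur protein. Its values were 9.60, 9.11, 9.33 and 9.47 in Control, 8.41, 8.25, 8.57 and 8.54 in CKD and 8.78, 8.46, 8.64 and 8.73 in CKD TRF. No CKD or CKD TRF library reached the lowest Control library. The change in CKD was -0.93 ± 0.11 (limma adjusted p = 1.80e-06). Uqcrc2 (chr7:120635176-120659524), a core protein, was tightly grouped, at 9.72 to 9.92 in Control and 8.93 to 9.05 in CKD, and fell by 0.81 ± 0.09 (limma adjusted p = 4.42e-07). Its partner Uqcrc1 fell by 0.31 ± 0.09 (limma adjusted p = 0.0115). Uqcrb (chr13:66900617-66905378), which lies near the ubiquinone site, fell by 0.71 ± 0.11 and Uqcr10 (chr11:4701973-4704342), a small subunit, by 0.63 ± 0.11 (limma adjusted p = 2.93e-05 and 8.62e-05). Uqcrq, Uqcrh and Uqcr11, also small subunits, fell by 0.54, 0.52 and 0.48. The calls of Uqcrc1, Uqcrq, Uqcrh and Uqcr11 were lost with quantile normalization (-0.03, -0.07, -0.06 and -0.20). Those of Uqcrc1 and Uqcr11 were also lost with equal sums (-0.08 and -0.25) and voom, and that of Uqcrc1 without the fat-marker libraries (limma adjusted p = 0.0559).

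Complex IV held both the general subunits, made in most tissues, and isoforms known from muscle, lung, testis or brown fat. Of 18 genes 15 were tested, 12 fell and 1 rose, with a median of -0.51. Cox8c and Cox7b2, known from testis, were at 0 in all 12 libraries, and Cox4i2, the lung isoform, stood at 0 to 1.07 on the log2 scale and was not tested. Of the 10 general subunits 9 fell, with a median of -0.54.

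Cox7c (chr13:86044816-86046904), a small general subunit, stood at 9.999, 9.91, 9.38 and 9.75 in Control, 8.07, 8.03, 8.57 and 8.77 in CKD and 8.67, 8.52, 8.98 and 9.07 in CKD TRF. No diseased library reached the lowest Control value. It fell by 1.40 ± 0.16 in CKD (limma adjusted p = 1.33e-06), from 877 ± 158 to 336 ± 85.9 scaled reads (SD, n = 4). The last bases of its transcript are nearly identical to those of the symbol Gm10012, so reads may be split between them. Cox7b (chrX:106015700-106022450) ran from 9.36 to 9.77 in Control and 8.19 to 8.73 in CKD and fell by 1.13 ± 0.13 (limma adjusted p = 1.01e-06). Cox6b1, on the face toward cytochrome c, fell by 0.98 ± 0.11 and Cox6c by 0.71 ± 0.14. Cox6a1, Cox8a, Cox7a2, Cox5a and Cox4i1 fell by 0.56, 0.51, 0.45, 0.39 and 0.37. All 5 lost their calls with quantile normalization, as did Cox6c, and Cox8a, Cox7a2, Cox5a and Cox4i1 also with equal sums (-0.29, -0.22, -0.16 and -0.14) and voom. Without Control 1 the Cox5a call was lost too (limma adjusted p = 0.0527). The general subunit Cox5b (chr1:36691449-36693681), which binds zinc, did not pass, with 8.83 to 9.04 in Control and 8.76 to 8.94 in CKD (-0.08 ± 0.09, limma adjusted p = 0.475). Quantile normalization called Cox5b higher, by 0.28. It also left Cox4i1, the regulatory subunit that binds adenine nucleotides, at 0.11 above Control without a call, and the Cox4i1 call was lost without Control 1 or Control 2 (limma adjusted p = 0.0514 and 0.0606). Cox7a2l fell by 0.35 ± 0.09 (limma adjusted p = 0.00528), a call that was lost at -0.12 with equal sums and at -0.10 after quantile normalization.

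Of the 4 tested tissue isoforms 2 fell, 1 rose and 1 did not pass. Cox8b (chr7:140898945-140900446), known from muscle and brown fat, read 0.49, 0.87, 0.42 and 0 in Control, 0.41, 4.29, 0.76 and 4.95 in CKD, and 2.39, 0.41, 2.72 and 3.84 in CKD TRF. Only CKD 2, CKD 4, CKD TRF 1, CKD TRF 3 and CKD TRF 4 were high, the 5 libraries with high fat markers, and the remaining diseased libraries lay within the Control range. The change of 2.15 ± 0.78 passed (limma adjusted p = 0.0294). The call was lost with quantile normalization (1.84, limma adjusted p = 0.074) and with voom, without the filter and without the mean trend. The change was 0.04 (limma adjusted p = 0.932) with the fat marker mean as a covariate and 0.14 (limma adjusted p = 0.791) without those 5 libraries, and the call was also lost without any one of Control 1, Control 4, CKD 2 or CKD 4 (limma adjusted p from 0.0534 to 0.134). Ucp1, the uncoupling protein that defines brown fat, followed the same libraries, at 4.76 in CKD 2, 5.71 in CKD 4, 2.55 in CKD TRF 1, 2.91 in CKD TRF 3, 4.32 in CKD TRF 4 and at most 0.83 elsewhere. Of 3 brown fat markers 2 were tested, Ucp1 and Cidea, and both rose, with CKD and Control values that overlapped. The untested Elovl3 did not follow the same libraries. It read 0.93, 0.42, 0.30 and 1.17 in CKD, 0, 1.26, 0.44 and 0.94 in CKD TRF and 0 in Control. Summed scaled reads of the 3 markers were 0 to 0.645 in Control, between 1.10 and 98.7 in CKD and between 1.39 and 38.8 in CKD TRF. Control levels of Cox8b are close to that of 3 reads, so its size depends on the added 1 and is not a bound.

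Cox6a2 (chr7:128205435-128206387), the heart and muscle partner of Cox6a1, read 3.29, 3.35, 3.48 and 3.22 in Control, 0.26, 1.12, 2.42 and 2.52 in CKD and 2.15, 2.02, 1.38 and 3.18 in CKD TRF. Control libraries were close together and the diseased ones widely spread, all below Control. It fell by 1.76 ± 0.40 in CKD (limma adjusted p = 0.00137), from 9.11 ± 0.769 to 2.61 ± 2.26 scaled reads (SD, n = 4). The value in CKD 1 is close to that of 3 reads (0.195 scaled reads in that library), so the size of the fall depends on the added 1. The sum of skeletal muscle markers was also lower in the diseased libraries: the 6 listed summed to 4.00 to 13.3 scaled reads in Control, between 0.195 and 2.24 in CKD and between 0.775 and 2.15 in CKD TRF. Myh4 was at 0 in all 8 diseased libraries but also in Control 2, and Myh1 was at 0 in the 4 CKD libraries. Of the 2 muscle markers that could be tested Acta1 fell. Mylpf did not pass in CKD (-0.40 ± 0.29, limma adjusted p = 0.271). CKD and Control overlapped for Mylpf, Ckm, Tnnt3 and Myh4. The part of the muscle markers in the Cox6a2 result was not tested. Cox6a2 overlaps Itgad on the opposite strand at its 3′ end. Cox7a1, the other heart and muscle isoform, fell by 0.53 ± 0.18 (limma adjusted p = 0.0188), with CKD 1 to 3 at 4.13, 4.33 and 4.41 and CKD 4 at 5.15, inside the Control range of 4.72 to 5.24. The Cox7a1 call was lost with equal sums (-0.31, limma adjusted p = 0.152) and without any one of Control 2, CKD 1 or CKD 2 (limma adjusted p from 0.0534 to 0.0797). The testis isoform Cox6b2 (chr7:4751792-4753094) stood at 2.74 to 3.80 in Control and 2.85 to 3.67 in CKD (-0.004 ± 0.22, limma adjusted p = 0.99), and its sign differed between scalings.

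**Figure D2:**
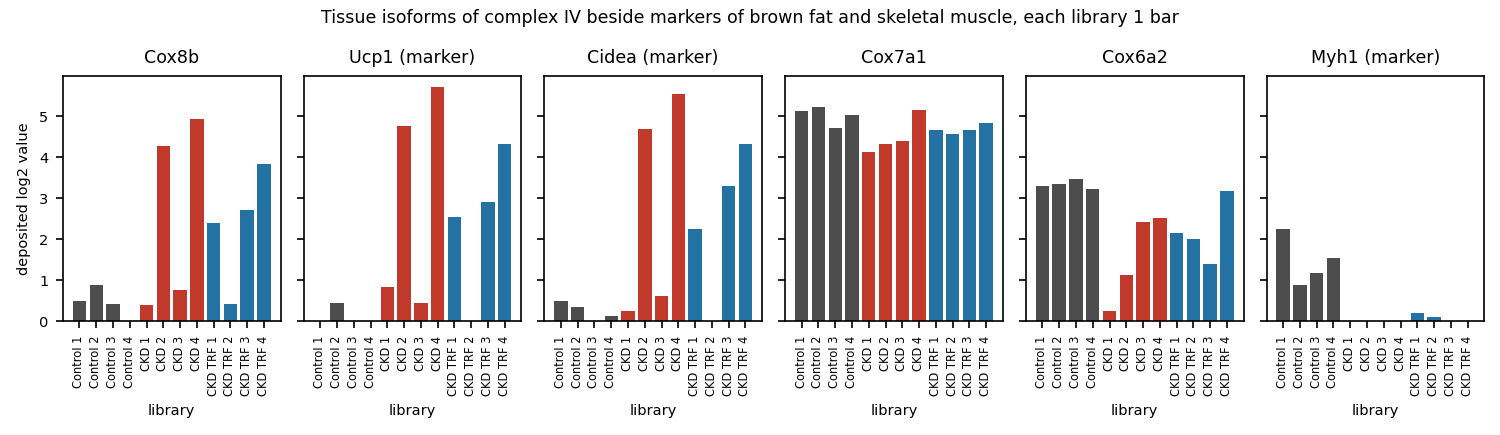
Deposited log2 value (y axis) of 3 tissue isoforms of complex IV beside Ucp1 and Cidea, markers of brown fat, and Myh1, a marker of skeletal muscle, 1 bar per library (x axis) with Control in grey, CKD in red and CKD TRF in blue. Cox8b is high in the same 5 libraries as Ucp1 and Cidea, and Cox6a2 is near 3.3 in the 4 Control libraries and lower in each diseased one.

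In complex V 16 of 17 genes fell, none rose and the median was -0.51. Atp5j (chr16:84827866-84835625), coupling factor 6 of the stalk, read 8.79, 8.40, 8.29 and 8.53 in Control, 6.93, 7.09, 7.39 and 7.74 in CKD and 7.55, 7.53, 7.76 and 7.74 in CKD TRF. Every diseased library was below every Control library. It fell by 1.22 ± 0.14 (limma adjusted p = 1.14e-06), from 365 ± 56.6 to 159 ± 40.5 scaled reads (SD, n = 4). Of the membrane subunits, Atp5l (chr9:44912557-44920742, subunit g) fell by 0.96 ± 0.12, Atp5k (subunit e) by 0.63 ± 0.11 and Atp5j2 (subunit f) by 0.54 ± 0.13. Of the catalytic F1 head all 5 subunits passed as lower in the values as deposited, though 3 of these calls depend on the setting as given next: gamma (Atp5c1, chr2:10056016-10080510) by 0.73 ± 0.10, epsilon (Atp5e) by 0.65 ± 0.12, delta (Atp5d) by 0.44 ± 0.10, alpha (Atp5a1) by 0.34 ± 0.10 and beta (Atp5b) by 0.28 ± 0.10 (limma adjusted p from 5.07e-06 to 0.03). Quantile normalization turned Atp5b around, to a call of 0.23 higher, and put Atp5a1 0.10 above Control without a call. With equal sums the calls of Atp5d (-0.22), Atp5a1 (-0.11) and Atp5b (-0.05) were lost, as with voom. The Atp5b call was lost in 11 of 26 alternatives, including the replicate block (limma adjusted p = 0.0509), the 2 compared groups only and the fits without any one of Control 1, CKD 1, CKD 2 or CKD 3 (limma adjusted p from 0.0508 to 0.088).

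The ring that turns in the membrane is made of subunit c, one protein encoded by 3 genes. Atp5g1 fell by 0.65 ± 0.11, Atp5g2 by 0.49 ± 0.09 and Atp5g3 by 0.47 ± 0.12 (limma adjusted p = 6.86e-05, 0.000144 and 0.00378). Atp5g3 went to 0.07 above Control without a call after quantile normalization, and its call was lost with equal sums (-0.24, limma adjusted p = 0.0955). The last bases of Atp5g1 have near-identical stretches in Cct6a, Ncbp3 and Gm32885, genes that do not carry its name, and those of Atp5g2 in Gm10175. In the stalk, Atp5h fell by 0.51 ± 0.09 and Atp5f1 by 0.43 ± 0.11. Quantile normalization ended both calls and that of Atp5j2, and equal sums that of Atp5f1 (-0.20). Atp5o (chr16:91925214-91931687), which joins the stalk to the head and gives the enzyme its oligomycin sensitivity, stood out: 9.50, 9.53, 9.60 and 9.58 in Control, 9.57, 9.44, 9.398 and 9.50 in CKD and 9.75, 9.60, 9.35 and 9.68 in CKD TRF. The 3 groups overlapped, with a difference in CKD of -0.07 ± 0.10 (limma adjusted p = 0.562), and quantile normalization called it higher by 0.39. Atp5s (chr12:69724950-69744660) fell by 0.71 ± 0.19 and Atp5sl by 0.31 ± 0.12 (limma adjusted p = 0.00456 and 0.0492). The Atp5sl call was lost in 19 of 26 alternatives, with -0.08 under equal sums, and without any 1 library other than Control 4 or CKD 1 (limma adjusted p from 0.0514 to 0.153).

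**Figure D3:**
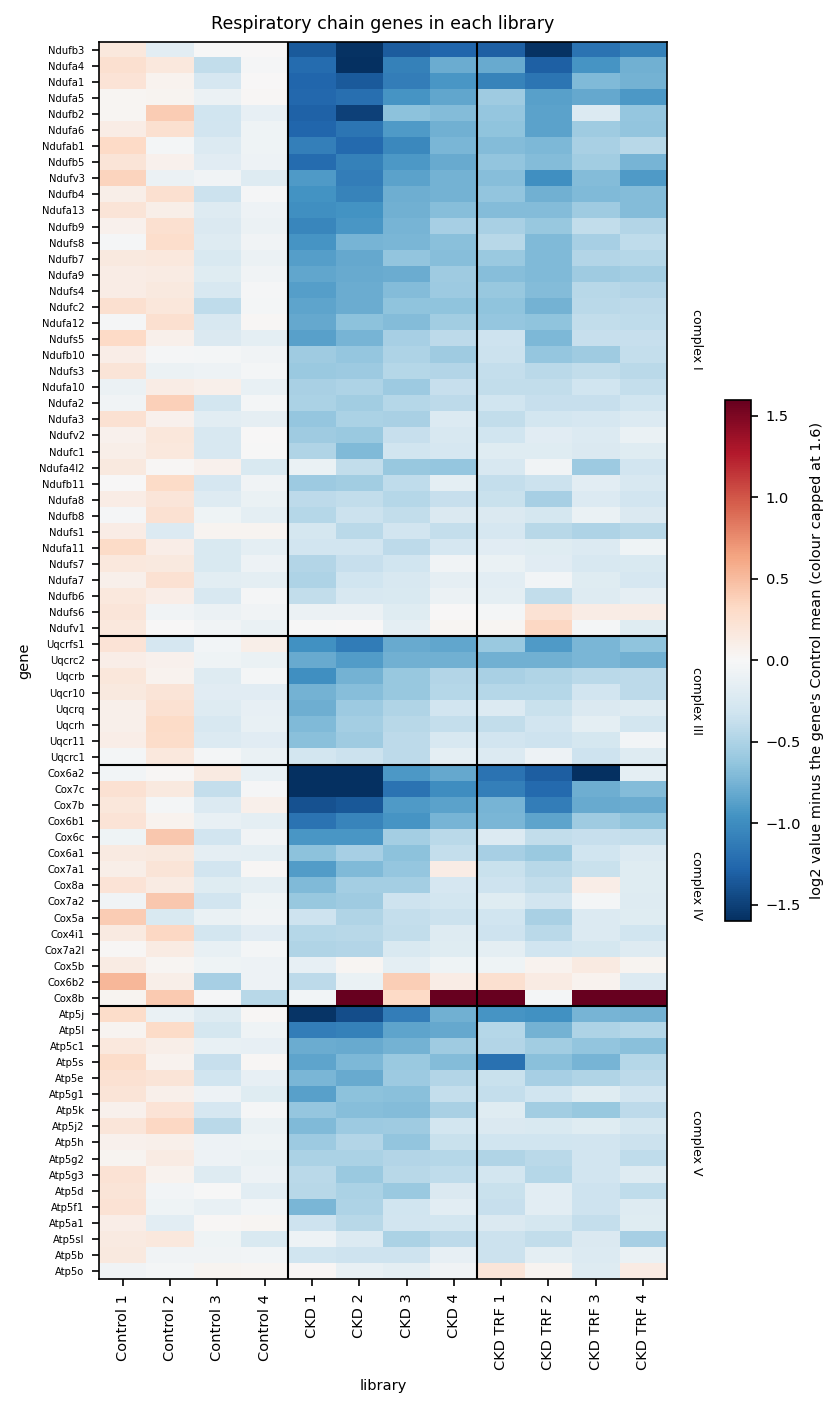
Tested genes, 77 of them (rows, by complex and change in CKD) in each of the 12 libraries (columns): the log2 value minus the gene's mean in Control, blue for lower and red for higher, with the colour capped at 1.6. The CKD and CKD TRF columns are mostly blue, Control 3 is the bluest of the Control columns, and Cox8b is the red row in complex IV.

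Within a group, the same libraries were high or low for many genes of the chain. Control 3 held the lowest Control value for 53 of the 78 genes, while Control 1 held the highest for 40 and Control 2 for 36. In CKD, CKD 4 was highest for 63 genes and CKD 1 lowest for 42, and in CKD TRF, CKD TRF 2 was lowest for 43. The median over the 78 genes, relative to the Control mean of each gene, was 0.15, 0.13, -0.20 and -0.07 in Control, -0.70, -0.60, -0.57 and -0.42 in CKD and -0.38, -0.45, -0.36 and -0.38 in CKD TRF. The median of all tested genes was between -0.01 and 0.03 in every library. The 81 genes took 3.52% to 4.20% of all scaled reads in Control, between 2.83% and 3.30% in CKD and between 3.03% and 3.38% in CKD TRF. In whole tissue, fewer cells of a type and less RNA per cell cannot be told apart. Of 8 proximal tubule markers, 4 fell in CKD and none rose, and their summed scaled reads were 6953 to 8921 in Control, between 5503 and 6134 in CKD and between 5937 and 7431 in CKD TRF. Among 5 distal tubule and loop of Henle markers, 4 were called higher and Pvalb lower, with sums of 1712 to 3232 in Control, between 3165 and 3402 in CKD and between 2882 and 3465 in CKD TRF. Of 5 collecting duct markers 2 fell and 2 rose, with sums of 322 to 336 in Control, between 294 and 574 in CKD and between 360 and 817 in CKD TRF. All 6 macrophage markers rose, from 118 to 144 scaled reads in sum in Control to between 352 and 452 in CKD and between 335 and 398 in CKD TRF, and all 5 urothelium markers rose. The part of these cell types in the respiratory chain result was not tested.

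**Figure D4:**
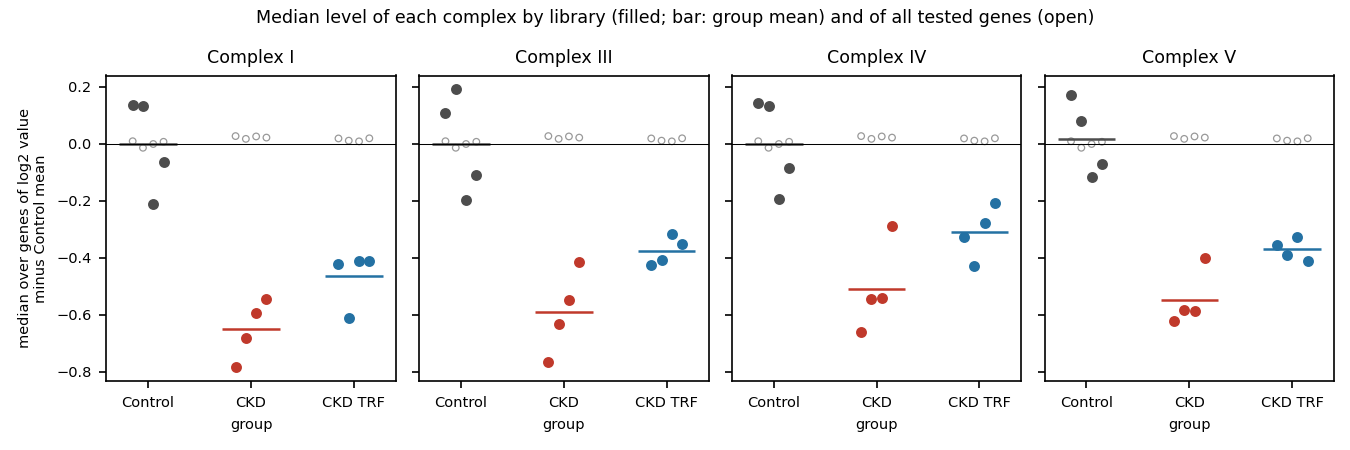
Median over the tested genes of a complex of the log2 value minus the gene's Control mean (y axis), 1 filled point per library with the group mean as a bar, and the same over all tested genes as open points. The 4 Control libraries lie between -0.21 and 0.19, the 8 diseased ones lie below them in each complex, and the open points stay near 0.

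The genes of the chain are short, with a median coding length of 393 bases against 1368 over all tested genes with a matched transcript. Across all tested genes, those of up to 400 coding bases had a median change of -0.26 (693 genes) and longer ones 0.04. Among the chain's genes the 39 short ones had a median of -0.63 and the 38 longer ones -0.50. Described across 77 genes, the change in CKD had a Spearman rho of 0.20 with coding length and of -0.16 with the mean level in Control. Across 12859 tested genes with a matched transcript these were 0.21 and -0.47. The Control mean enters both the change and the level. The genes share libraries and are not independent replicates.

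The comparison of CKD TRF with CKD asks whether the feeding schedule goes with other transcript levels in the diseased kidney. It shares the CKD libraries with the comparison above. None of the 78 genes passed, and 0% of all 13943 tested genes did (limma, adjusted p under 0.05), as under voom. At an unadjusted p under 0.05, 21 of the 78 differed, all higher in CKD TRF. Over all tested genes 3.42% were higher and 6.38% differed in either direction. Of the 1395 with the highest mean, 128 were higher by that rule, among them 19 of the 64 chain genes in that set. The difference was above 0 for 74 of the 78 genes, with a median of 0.17. It was above 0 for 48.5% of all tested genes and 68.1% of the 1395 with the highest mean. The same held for 94.6% of cytosolic and 76.6% of mitochondrial ribosomal protein genes, so this direction was not particular to the chain. The values of CKD TRF all lay above those of CKD for 11 of the 78 genes, against 2.37% of all tested genes. Of the 1395 with the highest mean, 88 lay apart in this way, among them 9 of the 64 chain genes in that set. The 11 were Ndufa2, Ndufa11, Ndufab1, Ndufb5, Ndufc1, Ndufs3, Cox6c, Atp5g1, Atp5h, Atp5j2 and Atp5l, named after their values were seen. The count of 21 was 4 without CKD 1, 8 without CKD 2, 34 without CKD 4 and 1 without the 5 fat-marker libraries, which leaves 1 library in CKD TRF. It was 9 with equal sums or voom, which lower the median of all genes by 0.07 and 0.08.

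Atp5l had the smallest unadjusted p. It read 7.71, 7.74, 7.97 and 8.002 in CKD and 8.36, 8.06, 8.32 and 8.37 in CKD TRF, a difference of 0.42 ± 0.12 that failed the correction (limma adjusted p = 0.705). In both groups it stayed below the Control range of 8.54 to 9.12. Cox7c differed by 0.45 ± 0.16 and Atp5j by 0.36 ± 0.14, with limma adjusted p of 0.705 and 0.719. For Ndufb3 the difference was 0.09 ± 0.11, for Uqcrc2 0.05 ± 0.09 and for Uqcrfs1 0.21 ± 0.11, with overlapping groups (limma adjusted p = 0.917, 0.946 and 0.80). By complex, the median difference was 0.17 in complex I, 0.22 in complex III, 0.19 in complex IV and 0.15 in complex V.

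Against Control, which this comparison shares with that of CKD, 51 of the 78 genes fell in CKD TRF and none rose (limma adjusted p under 0.05), while 17.9% of all tested genes fell and 19.5% rose. The median change of the 78 was -0.39. Of the 1395 tested genes with the highest mean, 44.7% fell, and 42 of the 64 chain genes in that set fell. The groups did not overlap for 48 of the 78 genes, all lower, against 15.6% of all tested genes. They lay apart in this direction for 555 of the 1395 and 41 of the 64. In complex I 27 of 38 fell, with a median of -0.49, in complex III 4 of 8 (-0.35), in complex IV 7 of 15 (-0.33) and in complex V 13 of 17 (-0.32). Among the named genes, Ndufb3 fell by 1.29 ± 0.11, Ndufa4 by 0.96 ± 0.16, Uqcrc2 by 0.76 ± 0.09, Uqcrfs1 by 0.72 ± 0.11, Cox7c by 0.95 ± 0.16, Cox7b by 0.86 ± 0.13, Atp5j by 0.86 ± 0.14 and Atp5c1 by 0.58 ± 0.10 (limma adjusted p from 5.09e-08 to 0.000153). Whether the change differs between the diseased groups is the comparison of CKD TRF with CKD, where no gene passed. Cox8b differed by 1.89 ± 0.78 (limma adjusted p = 0.062) and by -0.03 without the fat-marker libraries. The count of 51 was 28 after quantile normalization, with 4 genes called higher, and 24 without the fat-marker libraries, where the call of Atp5c1 was among those lost.

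Genes that build or complete the chain without carrying its names were taken from a list of 61, of which 47 were among the symbols here and all were tested. In CKD 30 of them fell and none rose, with a median of -0.54, beside 21.8% lower over all tested genes. The list has 4 further components, and all fell: Atpif1, the inhibitor of ATP synthase, by 1.13 ± 0.12, Usmg5, a small ATP synthase subunit, by 1.00 ± 0.16, Cycs, cytochrome c, by 0.79 ± 0.08, and Cyc1, the cytochrome c1 of complex III, by 0.23 ± 0.08. Cyc1 stood 0.07 above Control after quantile normalization and at -0.01 with equal sums or voom, and its call was also lost without the mean trend, with the fat marker covariate, without the fat-marker libraries and without CKD 2 or CKD 3 (limma adjusted p from 0.0542 to 0.216). Of 43 assembly and expression factors 26 fell, 9 of 13 for complex I, 3 of 6 for complex III, 13 of 21 for complex IV and 1 of 3 for complex V, the last near the share over all tested genes. Lrpprc, which stabilizes mitochondrial messenger RNAs, fell by 1.70 ± 0.16, Cox17, a copper chaperone of complex IV, by 1.38 ± 0.15, Coa6, also of copper delivery to complex IV, by 1.32 ± 0.16 and Ndufaf2, an assembly factor of complex I, by 1.31 ± 0.14 (limma adjusted p from 8.63e-08 to 2.19e-06). Lrpprc read 8.32, 8.09, 8.95 and 8.64 in Control against 6.55, 6.46, 7.17 and 7.01 in CKD and 7.32, 7.14, 7.18 and 7.30 in CKD TRF, with no overlap between Control and either diseased group. Of the 7 Ndufaf factors 5 fell, and Ndufaf6 stood at 0.02 ± 0.15. In CKD TRF against Control 28 of the 47 fell, beside 17.9% of all tested genes, and in CKD TRF against CKD none passed, with a median of 0.13.

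Ribosomal protein genes were read in the same way. Of 77 mitochondrial ribosomal protein genes, 47 fell in CKD and 1 rose, with a median of -0.41, beside the same 21.8%. Of 93 tested cytosolic ribosomal protein genes, 45 fell and 2 rose, with a median of -0.31. Of the 1395 tested genes with the highest mean, 53.3% fell, with a median of -0.30. In CKD TRF against CKD the medians of the mitochondrial and cytosolic ribosomal protein genes were 0.08 and 0.14, and none passed. The differences between these groups of genes and the respiratory chain were not tested.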

How the data were processed

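The 12 QuantSeq libraries were made from total kidney RNA taken up in Trizol, per the labels' protocols. The submitters' processing notes list Bowtie2, bedtools and the build mm10 and give no version. The authors deposited 1 log2 value per gene symbol and library, and the files name neither the unit nor the scaling. Read from the values, each was log2 of a scaled read number plus 1: of the values below 20 scaled reads, 98.3% to 100% per library were whole reads within 0.1.

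The files held 23282 entries and 23238 symbols, and of 35 repeated symbols the highest-mean entry was used. The upper 60% by mean log2 value, 13943 genes with a mean of at least 0.729, entered 1 model of the 3 groups in limma 3.58.1 (R 4.3.3), with moderated two-sided tests, a prior spread that followed the mean level, and Benjamini-Hochberg adjustment over all tested genes at 0.05. The script was tested on simulated data. There was no replicate block, since libraries with the same number did not deviate together (correlations from -0.18 to 0.11). Alternatives covered scaling, added number, filter, samples in the fit, weights, voom, fat markers and leaving out each library in turn.

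The members and gene lists were chosen with earlier results of these data known. Within the chain, values are given for the 4 largest changes of each complex, every tested gene that did not fall, the sets of isoforms, and the 4 largest changes of the other pathway genes. Other genes are named for their role, from the same tables. The values of 1 gene counted in the totals are not reported here and not drawn. Gene positions are from GENCODE M21 (mm10) by symbol, for 80 of the 81 genes, and promoters from RefSeq (GRCm38.p6). A near-identical copy shares at least 95% of 100 or more of the last 150 bases (blastn 2.17.0).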

Additional observations from a re-analysis of the deposited data

Results flagged for a closer look

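In 4 of 114 groups of 4 libraries, for the named genes, 1 library stood apart from the other 3 by Dixon's criterion (its gap over the group's range, above the 95% critical value for 4 values), which chance alone exceeds in about 1 of 20 groups. Ndufs6 read 8.639 in Control 1 against 8.351 to 8.393 in the other Control libraries. Uqcrc2 read 9.085 in CKD TRF 3 against 9.048 to 9.053, a narrow range in all. In CKD TRF 2, Cox7b read 8.480 against 8.785 to 8.842 in the other CKD TRF libraries and Atp5l read 8.065 against 8.323 to 8.367.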

How the results depend on the processing

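Of 26 alternatives, 12 leave out 1 library. The count of genes of the chain that fell in CKD, 71 as reported, was 40 after quantile normalization, 45 with equal sums and 47 with voom, and 63 to 71 when 1 library was left out. The count of rises, 1 as reported (Cox8b), was 5 after quantile normalization (Ndufv1, Ndufs6, Cox5b, Atp5b and Atp5o, with the Cox8b call lost) and 0 without a filter, in the upper 40% of genes, without the mean trend, with voom, with the fat marker covariate and without the fat-marker libraries, and 0 to 1 when 1 library was left out. In CKD TRF against Control the 51 falls were 28 after quantile normalization, 24 without the fat-marker libraries and 42 to 59 when 1 library was left out. The 0 rises there were 4 after quantile normalization and 1 with equal sums, with 0.25 as the added number, with the 2 compared groups only and with voom, and 0 to 1 when 1 library was left out. In CKD TRF against CKD no gene of the chain passed in limma under any of the 26, voom included, against 21 at an unadjusted p under 0.05 as reported. With the replicate number as a block, 70 fell and 1 rose in CKD, 46 fell in CKD TRF against Control and none passed in CKD TRF against CKD. The numbers did not pair the libraries.

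Some differences changed sign. After quantile normalization, CKD minus Control was 0.2224 for Ndufs6, 0.2749 for Ndufv1, 0.2807 for Cox5b, 0.3891 for Atp5o, 0.1106 for Cox4i1, 0.0654 for Atp5g3, 0.2307 for Atp5b, 0.0979 for Atp5a1, 0.1028 for Ndufb8, 0.0678 for Cyc1 and -0.0484 for Ndufaf6, and CKD TRF minus CKD was -0.0139 for Uqcrc2. With equal sums, CKD minus Control was 0.1352 for Ndufs6, 0.1952 for Ndufv1, 0.1449 for Cox5b, 0.2006 for Cox6b2 and 0.1533 for Atp5o, and CKD TRF minus CKD was -0.0316 for Uqcrc2. With voom these were 0.136, 0.1959, 0.1456, 0.2511, 0.153 and -0.0315. With the fat marker covariate, CKD minus Control was 0.0223 for Ndufv1 and 0.0097 for Cox6b2, and CKD TRF minus CKD was 0.0709 for Cox8b. Without the fat-marker libraries, CKD TRF minus CKD was -0.249 for Ndufb3, -0.1555 for Ndufa4, -0.0275 for Uqcrfs1 and 0.0465 for Atp5s, and CKD TRF minus Control was -0.0338 for Cox8b. Array weights gave 0.1208 for Cox6b2 and median centring -0.0848 for Ndufaf6 in CKD minus Control. When 1 library was left out, CKD minus Control ran from -0.1812 to 0.1721 for Cox6b2, -0.0688 to 0.0222 for Ndufv1 and -0.0533 to 0.0927 for Ndufaf6, and CKD TRF minus CKD from -0.1574 to 0.0896 for Atp5s and -0.9907 to 0.5233 for Cox8b. The cause of these changes was not tested.

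Over 87 genes, 2848 of 3084 refitted values kept their sign and side of the threshold. With the sign kept, 178 lost a call and 10 gained one. The sign changed for 48, some of which also lost or gained a call. Genes outside the upper 40% by mean have no value under that filter. The fit without the fat-marker libraries keeps 2 libraries in CKD and 1 in CKD TRF, which is taken to vary like the other groups. Depth limits statements on Cox8c, Cox7b2 and Cox4i2, at or near the level of 3 reads.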
